A study of Homo sapiens with 24 samples.

Results

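The interferon-stimulated genes described here are 44 genes whose transcription is raised by interferons in many cell types, chosen by symbol. All 44 were found, once each, among the 57820 genes of the deposited count files. RNA was sequenced from 24 libraries in 8 groups of 3 biological replicates. AID-DIvA cells, a derivative of the osteosarcoma line U2OS that carries the restriction enzyme AsiSI as an inducible source of DNA double-strand breaks, were WT or ID3-KO, and were untreated or treated with mocetinostat, an inhibitor of class I histone deacetylases (HDACs), for 24 h and then kept for 24 h in medium without the drug. U2OS cells of both genotypes received no drug or the drug for 24 h. That these U2OS cells were collected before recovery is inferred from the methods, and their library names carry DivA although the titles and the cell line label say U2OS. The stage of collection and the labelled line therefore coincide, and the 2 cannot be told apart in any comparison of U2OS with AID-DIvA. For the AID-DIvA libraries the labels contradict each other, in that the treatment field disagrees with the title, and the titles were followed. A dose, the use of a break inducer in these libraries, and how the knockout was made or how many clones it represents are not given in the sources used here.

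Interferons bind receptors at the cell surface, and kinases of the JAK family then activate transcription factors, among them STAT2, which acts with IRF9 in a complex that binds the interferon-stimulated response element in promoters. The genes under this control encode sensors of viral RNA, enzymes that degrade or modify RNA and proteins, and factors that block viral entry or release. Some of them are also switched on without interferon, by IRF1 or IRF3.

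Total counts ran from 37878751 to 76906266 in the 12 AID-DIvA libraries and from 46285533 to 70692114 in the 12 U2OS libraries, and levels are given as CPM, the counts of a gene scaled to the effective library size. The p-values measure the spread between the 3 replicates of a group. ID3 mRNA was still counted in every ID3-KO library, at 30.3 to 37.5 CPM without treatment, against 46.8 to 84.4 CPM in WT cells, so these counts do not check the knockout, which the study checked by Western blot. Of 8 osteoblast markers 5 were above 1 CPM on average, and 0 of 8 leukocyte markers were, with a summed leukocyte level of 0.565 to 1.59 CPM per library. Of 2 endothelial markers 1 was, with a sum of 1.52 to 11.4 CPM, and of 2 erythroid markers 0 were, with a sum of 0 to 0.0872 CPM. One library, untreated WT U2OS replicate 1, stood apart from its group across the genome and for several of the 44 genes. The chi-square of counts, per gene with enough counts, was 103 between replicates 1 and 2 and 91.1 between 1 and 3. Between 2 and 3 it was 4.32, and in the other groups it reached at most 27.3. The library had 27361 genes with a count, against 30832 and 29364 in replicates 2 and 3. In replicates 1, 2 and 3 ISG15 had 16.01, 8.35 and 8.11 CPM, IFITM3 117, 78.2 and 84.2 CPM and OAS3 31.9, 52.2 and 51.98 CPM. The results that the removal of replicate 1 moves most are given both ways. In these bulk samples fewer cells that express a gene and less RNA per cell cannot be told apart.

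Levels of different genes were compared per kilobase of exon, as group means. IFITM3, which blocks the fusion of viruses with endosomes, had the highest level, 37.3 to 69.03 CPM per kb over the 8 groups. Its neighbour IFITM2 followed with 21.7 to 34.5 CPM per kb, and then ISG15, a ubiquitin-like modifier, with 9.09 to 28.6 CPM per kb and IFI6, a mitochondrial antiapoptotic protein, with 7.895 to 27.7 CPM per kb. STAT2 was the most abundant transcription factor of the list, at 10.5 to 14.7 CPM per kb. At the other end stood EPSTI1, at 0 to 0.0126 CPM per kb, XAF1, at 0.000835 to 0.0172 CPM per kb, and MX2, at 0.00491 to 0.0398 CPM per kb. EPSTI1 and XAF1 passed the filter on low counts in none of the treatment comparisons and were not tested there.

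Mocetinostat followed by recovery was accompanied by a rise of 12 genes in WT and 12 genes in ID3-KO AID-DIvA cells, and none was called lower. Calls required a log2 fold change beyond 1 in either direction together with an adjusted p under 0.05. A value after ± is the standard error of a log2 fold change. Every adjusted p given here comes from the quasi-likelihood test of edgeR, adjusted over all genes tested by the method of Benjamini and Hochberg. In WT cells 12 of 40 members tested were higher, against 4.86% of all 20289 genes, and 0 were lower, against 2.52%. In ID3-KO cells 12 of 39 (30.8%) were higher, against 4.90% of 20362 genes, and 0 were lower, against 2.56%. The median log2 fold change of the members tested was 0.36 in WT and 0.47 in ID3-KO cells, beside -0.00050 and -0.02 over all genes tested.

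In U2OS cells treated for 24 h, 6 of 41 members tested were higher in WT cells (14.6%), a share close to the 13.6% of all 21797 genes, and 2 were lower (4.88%, against 5.06%). In ID3-KO U2OS cells 8 of 39 were higher (20.5%, against 14.6% of 21176 genes) and 3 were lower (7.69%, against 5.77%). The medians over the members tested were 0.15 and 0.27 on the log2 scale, beside 0.0058 and 0.00086 over all genes. Across the 4 treatment comparisons 24 of the 42 members tested were called at least once (57.1%), against 27.5% of all 22484 genes tested. OASL was the 1 member called higher in all 4. The overlaps that follow were not counted over all genes, so they describe the members only. The genes called higher in WT and in ID3-KO AID-DIvA cells, which share no library, had 8 genes in common, 66.7% of each set: OASL, IFIT2, IFIT3, RSAD2, BST2, ISG20, IFI44 and IFI44L. In U2OS cells 4 were common to both genotypes (66.7% of the WT set and 50% of the ID3-KO set), namely OASL, HERC5, HERC6 and IFI6, and the 2 lower genes of WT cells, MX1 and TRIM22, were also lower in ID3-KO cells.

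**Figure D1:**
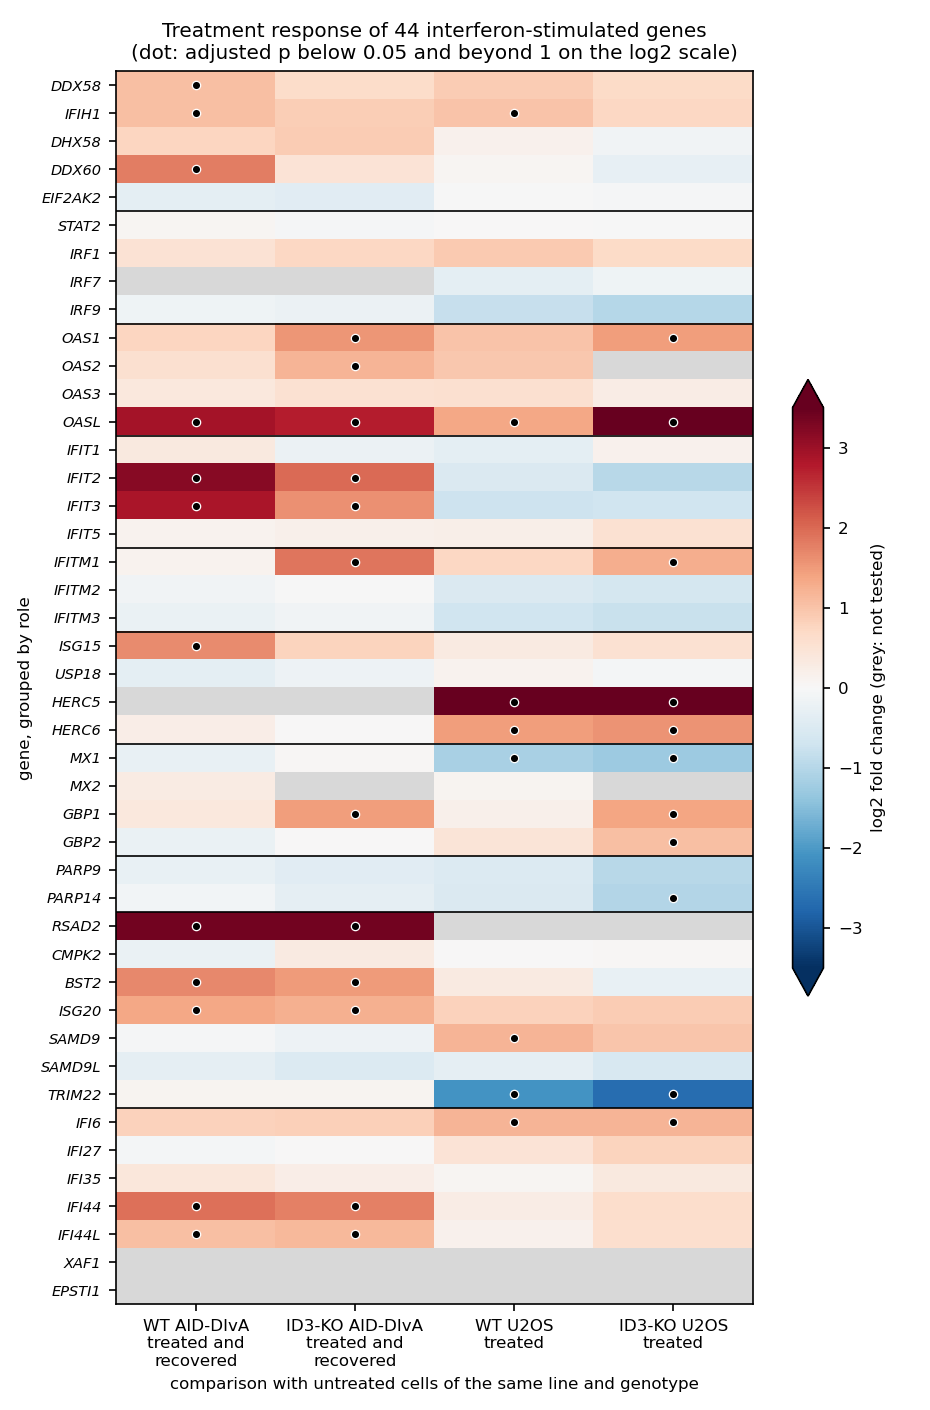
Log2 fold change of the 44 genes (rows, grouped by role) in the 4 comparisons of treated with untreated cells (columns), with dots on the genes that were called and grey where a gene was not tested. Of the strongest reds of the 2 AID-DIvA columns, IFIT2, IFIT3 and IFI44 are pale or blue in the U2OS columns and RSAD2, not tested there, is grey, while HERC5, HERC6 and TRIM22 are called in the U2OS columns, and OASL is dotted in all 4.

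The RNA sensors and helicases detect viral RNA or regulate its detection. DDX60 (ENSG00000137628.12, chr4:169137444-169239958), a helicase that promotes signalling by the RIG-I-like receptors, changed most. DDX60 stood at 4.22, 4.51 and 5.05 CPM in untreated WT AID-DIvA cells and at 18.4, 15.4 and 13.8 CPM after treatment and recovery, and in ID3-KO cells at 4.85, 5.69 and 4.79 CPM and 5.47, 7.69 and 7.997 CPM, in the same order. The 3 treated WT libraries lay above all untreated ones, while the ID3-KO libraries overlapped. The rise in WT cells was 1.79 ± 0.11 (adjusted p = 2.9e-08), the value in ID3-KO cells was 0.47, and the ID3-KO response minus the WT response was -1.31 ± 0.19 (adjusted p = 0.0027). In U2OS cells DDX60 had 2.04, 2.85 and 3.27 CPM in untreated and 3.27, 2.34 and 2.93 CPM in treated WT libraries, and 4.38, 3.31 and 3.25 CPM and 2.600, 3.11 and 3.23 CPM in the ID3-KO libraries. In WT cells those groups overlapped. In ID3-KO cells the treated libraries were below the untreated ones, at -0.28 (adjusted p = 0.057), and neither comparison passed.

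DDX58, which encodes RIG-I, and IFIH1, which encodes MDA5, are the sensors that signal through MAVS. DDX58 stood at 9.69, 9.67 and 9.27 CPM in untreated WT AID-DIvA cells and at 22.6, 19.1 and 17.4 CPM after treatment and recovery, and in ID3-KO cells at 12.5, 13.3 and 10.98 CPM and 17.2, 19.9 and 20.2 CPM, in the same order. IFIH1 stood at 4.03, 3.77 and 3.82 CPM in untreated WT AID-DIvA cells and at 8.27, 8.27 and 7.47 CPM after treatment and recovery, and in ID3-KO cells at 4.45, 4.72 and 4.37 CPM and 7.13, 8.94 and 8.31 CPM, in the same order. Treated libraries lay above untreated ones in both genotypes. On the log2 scale DDX58 rose by 1.05 ± 0.09 (adjusted p = 5.5e-07) and IFIH1 by 1.05 ± 0.08 (adjusted p = 3.7e-07) in WT cells. In ID3-KO cells the values, 0.64 (adjusted p = 0.00069) and 0.85 (adjusted p = 0.00014), stayed under 1. In U2OS cells DDX58 gave 9.698, 10.2 and 9.87 CPM in untreated and 17.6, 17.997 and 18.9 CPM in treated WT libraries, and 10.7, 11.9 and 11.3 CPM and 17.5, 19.3 and 17.5 CPM in the ID3-KO libraries. In U2OS cells IFIH1 gave 3.08, 4.09 and 4.43 CPM in untreated and 7.81, 8.52 and 6.96 CPM in treated WT libraries, and 3.98, 4.13 and 3.71 CPM and 6.51, 6.69 and 6.497 CPM in the ID3-KO libraries. Here too the treated libraries were the higher ones without overlap, and IFIH1 in WT cells was the single call, at 1.01 ± 0.16 (adjusted p = 0.0012). Without untreated WT replicate 1 that value was 0.86 (adjusted p = 3.4e-10) and without treated WT replicate 2 it was 0.94 (adjusted p = 0.0088), so that IFIH1 was no longer called. DDX58 in WT AID-DIvA cells was not called without treated replicate 1, at 0.94 (adjusted p = 1.5e-14).

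EIF2AK2, the kinase PKR that arrests translation on binding double-stranded RNA, was not called. EIF2AK2 stood at 85.9, 84.3 and 90.6 CPM in untreated WT AID-DIvA cells and at 70.6, 66.7 and 68.1 CPM after treatment and recovery, and in ID3-KO cells at 99.05, 96.7 and 83.6 CPM and 58.9, 74.5 and 79.3 CPM, in the same order. In U2OS cells EIF2AK2 gave 62.3, 72.2 and 73.8 CPM in untreated and 67.99, 67.4 and 69.3 CPM in treated WT libraries, and 77.3, 76.8 and 77.4 CPM and 71.9, 80.2 and 71.7 CPM in the ID3-KO libraries. After recovery the treated libraries were below the untreated ones in both genotypes, and in U2OS cells the groups overlapped. Its log2 fold changes ran from -0.39 to -0.02. DHX58, the regulatory helicase LGP2, had 0.75 (adjusted p = 0.0021) and 0.88 (adjusted p = 0.0096) in WT and ID3-KO AID-DIvA cells and 0.15 (adjusted p = 0.58) and -0.12 (adjusted p = 0.62) in U2OS cells, at 0.377 to 1.46 CPM. Without treated and recovered ID3-KO replicate 2 the second value was 1.06 (adjusted p = 0.0077), past the threshold.

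The transcription factors of the list were not called in any treatment comparison. IRF1 can bind the response element without interferon. IRF1 stood at 8.59, 8.42 and 8.41 CPM in untreated WT AID-DIvA cells and at 11.4, 12.2 and 12.6 CPM after treatment and recovery, and in ID3-KO cells at 8.05, 8.94 and 9.11 CPM and 15.6, 14.3 and 13.6 CPM, in the same order. In U2OS cells IRF1 gave 12.7, 10.7 and 9.91 CPM in untreated and 20.5, 19.98 and 21.7 CPM in treated WT libraries, and 12.5, 10.99 and 11.2 CPM and 19.4, 17.6 and 18.3 CPM in the ID3-KO libraries. Treated libraries exceeded untreated ones in all 4 comparisons, by 0.52 (adjusted p = 3.3e-05), 0.73 (adjusted p = 0.00014), 0.91 (adjusted p = 0.00031) and 0.68 (adjusted p = 5.9e-09) on the log2 scale in WT and ID3-KO AID-DIvA and in WT and ID3-KO U2OS cells. Without untreated WT U2OS replicate 1 the WT U2OS value was 1.01 (adjusted p = 1.7e-18), past the threshold.

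STAT2 and IRF9 belong to the interferon-activated complex. STAT2 had log2 fold changes from -0.03 to 0.06, and none passed the test. IRF9 stood at 1.11, 1.25 and 1.33 CPM in untreated WT AID-DIvA cells and at 1.02, 0.988 and 1.31 CPM after treatment and recovery, and in ID3-KO cells at 1.15, 1.24 and 1.17 CPM and 1.35, 1.06 and 0.735 CPM, in the same order. Those groups overlapped. In U2OS cells IRF9 gave 0.793, 1.85 and 1.33 CPM in untreated and 0.909, 0.786 and 0.601 CPM in treated WT libraries, and 1.49, 1.57 and 1.49 CPM and 0.541, 0.725 and 1.004 CPM in the ID3-KO libraries. The ID3-KO groups did not overlap and differed by -0.99 ± 0.20 (adjusted p = 0.00016), just short of the threshold. Without untreated replicate 1 or 3 or treated replicate 3 it was called, at -1.26 to -1.001. The WT value was -0.80 (adjusted p = 0.080), or -1.09 (adjusted p = 2.6e-05) without untreated replicate 1. IRF7, the factor that amplifies interferon production, was tested in U2OS cells only, where neither genotype passed. Counts of the reverse strand, the strand of the transcript in these libraries, were 13.8% of the counts from either strand for IRF7, so that most reads assigned to it came from the opposite strand and its level is uncertain.

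The OAS family senses double-stranded RNA. OAS1, OAS2 and OAS3 make the second messenger that activates RNase L, while OASL lacks this activity and binds RIG-I. OASL (ENSG00000135114.8, chr12:121458095-121477045) was the member with the most calls, in 9 of the 10 comparisons. OASL stood at 2.33, 2.09 and 2.004 CPM in untreated WT AID-DIvA cells and at 18.9, 15.3 and 13.9 CPM after treatment and recovery, and in ID3-KO cells at 0.844, 0.546 and 0.601 CPM and 4.57, 4.099 and 4.79 CPM, in the same order. In U2OS cells OASL stood at 5.699, 5.39 and 5.33 CPM in untreated and 13.8, 14.1 and 13.96 CPM in treated WT libraries, and 0.784, 0.820 and 0.886 CPM and 11.8, 9.93 and 11.03 CPM in the ID3-KO libraries. Treated and untreated libraries were apart in all 4 comparisons, and untreated ID3-KO libraries were the lowest of each line. The log2 rises were 2.92 ± 0.12 (adjusted p = 1.2e-09) in WT and 2.76 ± 0.16 (adjusted p = 1.3e-06) in ID3-KO AID-DIvA cells. In U2OS cells they were 1.35 ± 0.08 (adjusted p = 1.1e-05) in WT and 3.71 ± 0.12 (adjusted p = 1.1e-17) in ID3-KO cells, and the second exceeded the first by 2.36 ± 0.13 (adjusted p = 8.9e-07).

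OAS1 stood at 1.24, 1.403 and 0.765 CPM in untreated WT AID-DIvA cells and at 2.02, 2.18 and 1.47 CPM after treatment and recovery, and in ID3-KO cells at 0.552, 0.690 and 0.819 CPM and 2.27, 1.93 and 1.89 CPM, in the same order. In U2OS cells OAS1 gave 1.64, 1.71 and 1.53 CPM in untreated and 3.36, 3.08 and 3.21 CPM in treated WT libraries, and 1.17, 0.924 and 0.904 CPM and 2.86, 2.803 and 2.61 CPM in the ID3-KO libraries. The treated libraries were above the untreated ones in each comparison. OAS1 was called in ID3-KO cells of both lines, at 1.56 ± 0.17 (adjusted p = 7.5e-05) and 1.47 ± 0.15 (adjusted p = 1.1e-08), and not in WT cells, at 0.74 (adjusted p = 0.011) and 0.99 (adjusted p = 0.00042). The second WT value passed without untreated WT replicate 2, at 1.03 (adjusted p = 0.0018), and without treated WT replicate 2, at 1.02 (adjusted p = 0.0033). The tests of the genotype difference did not pass, with differences of 0.82 (adjusted p = 0.27) in AID-DIvA and 0.48 (adjusted p = 0.25) in U2OS cells. OAS3 stood at 48.3, 46.6 and 46.5 CPM in untreated WT AID-DIvA cells and at 62.8, 59.3 and 60.5 CPM after treatment and recovery, and in ID3-KO cells at 55.7, 54.7 and 56.5 CPM and 82.2, 79.8 and 77.3 CPM, in the same order. In U2OS cells OAS3 gave 31.9, 52.2 and 51.98 CPM in untreated and 64.3, 68.04 and 66.3 CPM in treated WT libraries, and 67.2, 62.9 and 64.1 CPM and 81.02, 72.9 and 79.6 CPM in the ID3-KO libraries. Its log2 fold changes lay between 0.27 and 0.55, below the threshold in all 4 comparisons although every adjusted p was under 0.05. The upper value, from WT U2OS cells, was 0.34 (adjusted p = 4.0e-10) without untreated replicate 1. OAS2, below 1 CPM in all libraries, had 0.57 (adjusted p = 0.19) in WT AID-DIvA and 0.93 (adjusted p = 0.038) in WT U2OS cells and was called in ID3-KO AID-DIvA cells at 1.19 ± 0.35 (adjusted p = 0.023), a call that was lost, with values of 0.98 to 1.12 and adjusted p of 0.061 to 0.087, without treated and recovered replicate 2 or 3 or untreated replicate 1 or 3.

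The IFIT proteins bind foreign RNA and block its translation. The 4 genes lie side by side on chromosome 10 in hg19 coordinates: IFIT2 (ENSG00000119922.7, chr10:91061712-91069033), IFIT3 (ENSG00000119917.9, chr10:91087651-91100728), IFIT1 (ENSG00000185745.8, chr10:91152303-91163745) and IFIT5 (ENSG00000152778.7, chr10:91174343-91180758). IFIT2 and IFIT3 rose after treatment and recovery, and their neighbours were not called. IFIT2 stood at 1.28, 1.503 and 1.35 CPM in untreated WT AID-DIvA cells and at 15.5, 11.8 and 10.3 CPM after treatment and recovery, and in ID3-KO cells at 1.33, 1.33 and 1.37 CPM and 5.21, 5.601 and 5.06 CPM, in the same order. IFIT3 stood at 2.49, 2.61 and 2.85 CPM in untreated WT AID-DIvA cells and at 23.7, 17.1 and 16.5 CPM after treatment and recovery, and in ID3-KO cells at 2.35, 2.498 and 2.26 CPM and 7.002, 7.37 and 7.12 CPM, in the same order. Treated libraries stood far above untreated ones in both genotypes, and every treated WT library was above every treated ID3-KO library while the untreated libraries overlapped. On the log2 scale IFIT2 rose by 3.19 ± 0.16 (adjusted p = 1.9e-08) in WT and 1.98 ± 0.10 (adjusted p = 8.0e-07) in ID3-KO cells, and IFIT3 by 2.85 ± 0.15 (adjusted p = 5.1e-08) and 1.59 ± 0.09 (adjusted p = 1.2e-06). The ID3-KO response minus the WT response was -1.20 ± 0.21 (adjusted p = 0.0090) for IFIT2 and -1.25 ± 0.18 (adjusted p = 0.0027) for IFIT3.

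In U2OS cells IFIT2 gave 0.890, 1.07 and 1.02 CPM in untreated and 0.733, 0.889 and 0.492 CPM in treated WT libraries, and 1.17, 1.22 and 1.49 CPM and 0.489, 1.09 and 0.455 CPM in the ID3-KO libraries. In U2OS cells IFIT3 gave 2.202, 2.44 and 1.900 CPM in untreated and 1.42, 0.683 and 1.79 CPM in treated WT libraries, and 2.11, 1.74 and 1.83 CPM and 1.12, 1.16 and 1.18 CPM in the ID3-KO libraries. After treatment alone both genes were below their untreated levels in both genotypes, without overlap. The log2 fold changes were -0.51 (adjusted p = 0.13) and -0.96 (adjusted p = 0.0021) for IFIT2 and -0.72 (adjusted p = 0.086) and -0.71 (adjusted p = 0.00034) for IFIT3 in WT and ID3-KO cells, none past the threshold. IFIT3 in WT cells passed without treated replicate 3, at -1.03 (adjusted p = 0.047), and IFIT2 in ID3-KO cells without untreated replicate 1 or 2 or treated replicate 2, at -1.45 to -1.01. The response in U2OS differed from that in AID-DIvA cells by -3.71 ± 0.29 (adjusted p = 4.6e-07) in WT and -2.94 ± 0.29 (adjusted p = 1.0e-07) in ID3-KO cells for IFIT2, and by -3.55 ± 0.33 (adjusted p = 1.9e-06) and -2.29 ± 0.16 (adjusted p = 8.7e-10) for IFIT3.

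IFIT1 stood at 14.3, 13.8 and 13.1 CPM in untreated WT AID-DIvA cells and at 18.7, 17.3 and 16.1 CPM after treatment and recovery, and in ID3-KO cells at 8.84, 9.302 and 8.78 CPM and 7.77, 7.54 and 7.91 CPM, in the same order. In U2OS cells IFIT1 gave 7.79, 6.98 and 7.15 CPM in untreated and 5.66, 6.23 and 5.51 CPM in treated WT libraries, and 7.24, 6.92 and 7.27 CPM and 7.36, 8.05 and 8.29 CPM in the ID3-KO libraries. IFIT1 was higher after recovery in WT cells without overlap and lower in ID3-KO cells without overlap, with log2 values of 0.35 (adjusted p = 0.0010) and -0.21 (adjusted p = 0.047) that stayed within the threshold. The difference between the responses was -0.56 ± 0.10 (adjusted p = 0.012). IFIT5 stood at 15.1, 15.2 and 15.4 CPM in untreated WT AID-DIvA cells and at 18.1, 15.9 and 15.4 CPM after treatment and recovery, and in ID3-KO cells at 14.3, 14.8 and 14.1 CPM and 14.8, 16.7 and 17.2 CPM, in the same order. In U2OS cells IFIT5 gave 13.5, 13.6 and 14.6 CPM in untreated and 16.3, 15.8 and 15.8 CPM in treated WT libraries, and 13.7, 13.1 and 14.003 CPM and 18.7, 21.03 and 19.2 CPM in the ID3-KO libraries. IFIT5 was above its untreated level in treated U2OS cells of both genotypes, by 0.21 (adjusted p = 0.053) in WT and 0.53 (adjusted p = 1.0e-07) in ID3-KO cells, and was not called.

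**Figure D2:**
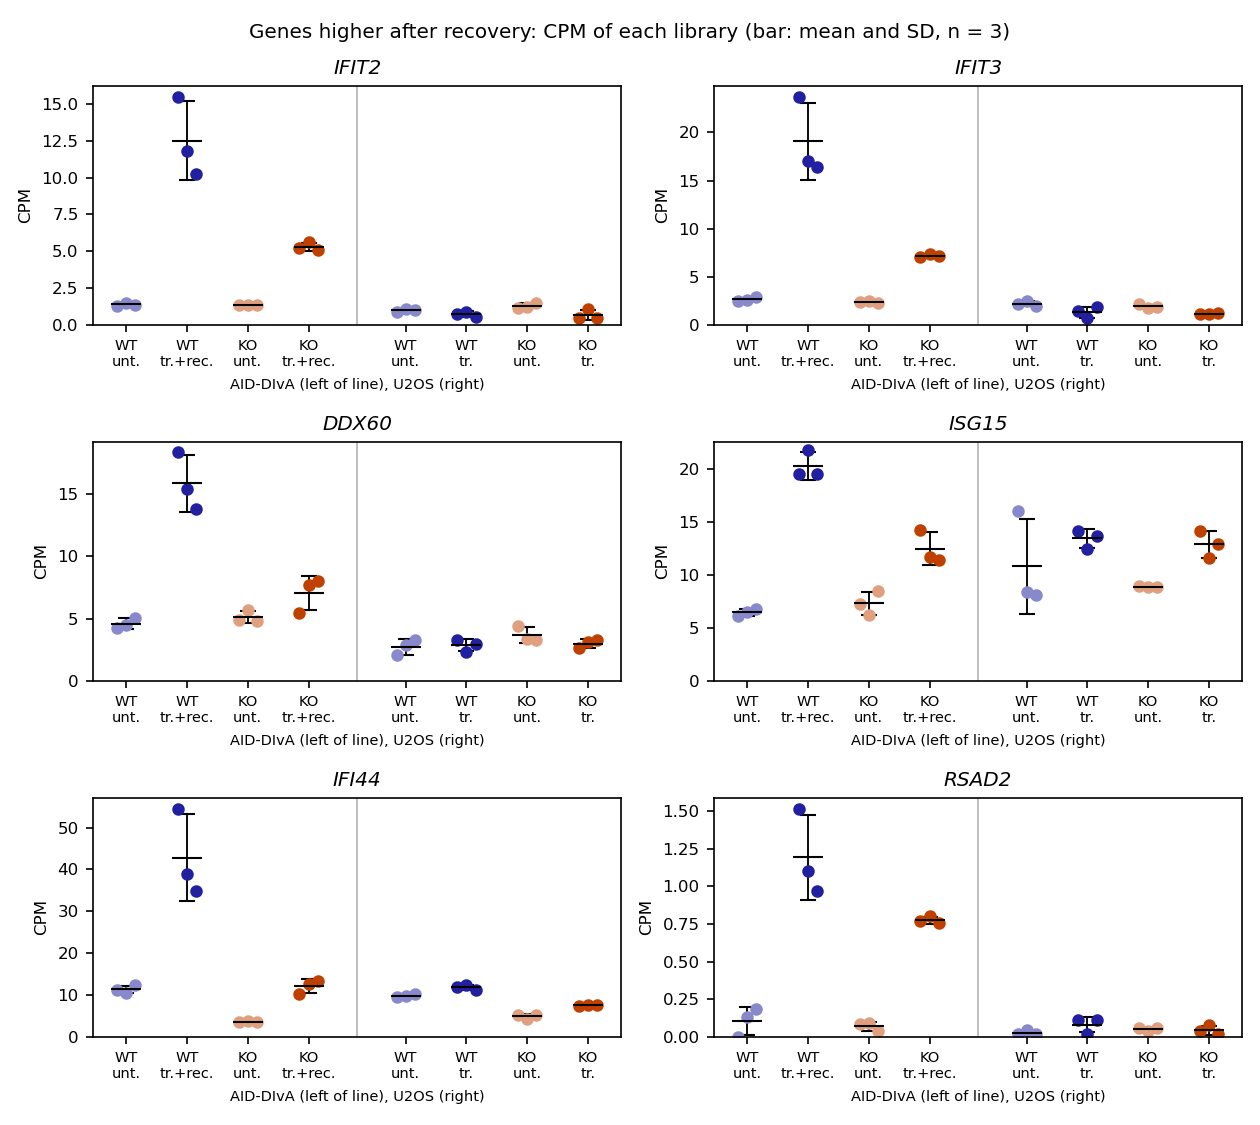
CPM of IFIT2, IFIT3, DDX60, ISG15, IFI44 and RSAD2 in every library (points), with the mean and SD of each group of 3 (bars), for AID-DIvA cells left and U2OS cells right of the grey line (unt., untreated; tr., treated; tr.+rec., treated and recovered). The treated and recovered WT libraries, such as IFIT2 at 15.5, 11.8 and 10.3 CPM, are the highest of each panel, and every U2OS library lies below them.

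Many members are known for a shared promoter element. RefSeq promoter windows on GRCh38.p14, from 250 bases before to 50 after the start, were matched to 34 of the 44 members. No window was matched for DHX58, IRF7, OAS2, OASL, IFIT2, IFITM2, USP18, MX2, GBP2 and TRIM22. The core of the interferon-stimulated response element, searched as GAAANNGAAA on both strands, was in at least 1 window of 24 of the 34 (70.6%) and in 28 of their 44 windows (63.6%), against 3.57% of all 35116 promoters. The gamma-activated site, searched as TTCNNNGAA on both strands, was in 11 of the 34 (32.4%) and in 12 of their 44 windows (27.3%), against 7.66% of all promoters. This site can overlap the first motif. The GC box GGGCGG, on either strand, was in 19 of the 34 (55.9%) and in 20 of their 44 windows (45.5%), against 45.0% of all promoters. The shares of all promoters count windows, so the window shares of the members are the like measure. Among genes called higher after recovery the core was in 9 of the 10 with a window in WT cells, with DDX58 the exception, and in 8 of 9 in ID3-KO cells, with OAS1 the exception. It was also in 13 of 21 and 14 of 22 members that were tested and not called. In U2OS cells it was in 4 of 5 higher genes in WT and 4 of 6 in ID3-KO cells, and HERC6 was without it in both. A match describes the letters of a window and is not a measurement of binding.

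The stretches printed here, 5′ to 3′ in the direction of each gene, end before the start of transcription and are shown for genes with calls in AID-DIvA cells (IFIT3, ISG15, RSAD2, IFI44, BST2, DDX60) and in U2OS cells (HERC5, MX1). Capitals mark the response element core or its reverse complement, and positions are those of GRCh38.p14, not of hg19.
IFIT3, chr10:89327821-89327904, plus strand: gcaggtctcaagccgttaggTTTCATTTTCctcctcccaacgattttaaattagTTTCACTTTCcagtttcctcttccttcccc
IFIT3, chr10:89332415-89332507, plus strand: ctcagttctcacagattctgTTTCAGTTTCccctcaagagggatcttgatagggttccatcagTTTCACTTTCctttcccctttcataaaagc
ISG15, chr1:1013364-1013419, plus strand: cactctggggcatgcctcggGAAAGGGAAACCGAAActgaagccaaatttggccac
RSAD2, chr2:6877612-6877661, plus strand: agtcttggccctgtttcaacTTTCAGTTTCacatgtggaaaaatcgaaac
IFI44, chr1:78649751-78649788, plus strand: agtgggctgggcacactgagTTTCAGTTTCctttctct
BST2, chr19:17405725-17405780, minus strand: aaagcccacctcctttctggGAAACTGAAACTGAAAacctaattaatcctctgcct
DDX60, chr4:168318776-168318860, minus strand: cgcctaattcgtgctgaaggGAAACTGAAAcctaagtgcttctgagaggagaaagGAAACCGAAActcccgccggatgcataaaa
HERC5, chr4:88456974-88457074, plus strand: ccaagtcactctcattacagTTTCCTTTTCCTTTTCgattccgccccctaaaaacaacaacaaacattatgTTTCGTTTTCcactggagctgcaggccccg
MX1, chr21:41431834-41431883, plus strand: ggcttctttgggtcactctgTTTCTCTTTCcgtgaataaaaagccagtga
IFIT3, ISG15, BST2 and DDX60 held 2 matches in a stretch and HERC5 held 3, some of which overlap, while RSAD2, IFI44 and MX1 held 1.

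ISG15 is conjugated to proteins by the ligase HERC5 and removed by USP18, and the related ligase HERC6 is encoded next to HERC5. ISG15 (ENSG00000187608.5, chr1:948803-949920) rose after recovery in WT cells. ISG15 stood at 6.12, 6.46 and 6.81 CPM in untreated WT AID-DIvA cells and at 19.6, 21.8 and 19.5 CPM after treatment and recovery, and in ID3-KO cells at 7.27, 6.21 and 8.45 CPM and 14.3, 11.7 and 11.5 CPM, in the same order. The treated libraries were above the untreated ones in both genotypes, and the treated WT libraries were above the treated ID3-KO libraries. The rise was 1.65 ± 0.07 (adjusted p = 1.5e-09) in WT cells, the value in ID3-KO cells was 0.77 (adjusted p = 0.0010), and the difference between them was -0.88 ± 0.15 (adjusted p = 0.0078). In U2OS cells ISG15 gave 16.01, 8.35 and 8.11 CPM in untreated and 14.2, 12.5 and 13.7 CPM in treated WT libraries, and 8.95, 8.86 and 8.82 CPM and 14.2, 11.6 and 12.9 CPM in the ID3-KO libraries. In WT U2OS cells untreated replicate 1 lay above all treated libraries, so that the groups overlapped, and the log2 value of 0.32 (adjusted p = 0.33) became 0.71 (adjusted p = 2.2e-11) without it.

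HERC5 (ENSG00000138646.4, chr4:89378268-89427314) and HERC6 (ENSG00000138642.10, chr4:89299891-89364263) went up in treated U2OS cells. HERC5 had 0 counts in the 3 untreated WT libraries and 238 counts in the 3 treated ones, which was at least 84.2-fold higher against a floor of 3 counts over the group. In ID3-KO cells it had 3 counts in all untreated and 308 counts in all treated libraries, a ratio of 101 per total count (exact 95% interval 34.3 to 493, for counting error only). Both comparisons passed the test, with adjusted p of 0.00012 in WT and 1.3e-12 in ID3-KO cells. The treated levels were 1.05, 1.24 and 1.53 CPM in WT and 1.54, 1.81 and 1.96 CPM in ID3-KO cells, all above the untreated libraries, at 0 to 0.0369 CPM. After recovery in AID-DIvA cells HERC5 had 9 counts in the 3 treated WT libraries and 23 in the 3 treated ID3-KO libraries, against 1 in each untreated group. The treated libraries were above the untreated ones in both genotypes. The ratios were 10.1 (interval 1.41 to 445) and 28.5 (interval 4.63 to 1170), again for counting error only. HERC5 did not pass the filter there. Without the filter it was called in ID3-KO but not in WT cells.

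In U2OS cells HERC6 stood at 8.11, 7.996 and 8.42 CPM in untreated and 23.002, 21.6 and 22.5 CPM in treated WT libraries, and 9.01, 10.8 and 9.85 CPM and 27.5, 31.2 and 30.2 CPM in the ID3-KO libraries. HERC6 stood at 9.59, 8.901 and 8.98 CPM in untreated WT AID-DIvA cells and at 11.4, 10.7 and 10.2 CPM after treatment and recovery, and in ID3-KO cells at 10.97, 12.1 and 10.5 CPM and 9.75, 11.7 and 12.5 CPM, in the same order. HERC6 lay above its untreated level in every treated U2OS library, while after recovery the groups overlapped in ID3-KO cells and were apart in WT cells. Its log2 fold change was 1.46 ± 0.08 (adjusted p = 5.7e-06) in WT and 1.58 ± 0.07 (adjusted p = 3.2e-15) in ID3-KO U2OS cells, and 0.24 (adjusted p = 0.013) and 0.02 (adjusted p = 0.91) in WT and ID3-KO AID-DIvA cells. The response in U2OS exceeded that in AID-DIvA by 1.22 ± 0.10 (adjusted p = 8.2e-07) in WT and 1.57 ± 0.13 (adjusted p = 6.9e-09) in ID3-KO cells. USP18, which removes ISG15 and restrains interferon receptor signalling, was not called in any treatment comparison, with log2 values from -0.35 to 0.11.

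The IFITM proteins block virus entry. IFITM3 stood at 67.03, 64.9 and 65.6 CPM in untreated WT AID-DIvA cells and at 56.1, 57.8 and 54.2 CPM after treatment and recovery, and in ID3-KO cells at 61.2, 60.1 and 68.5 CPM and 61.5, 58.8 and 53.1 CPM, in the same order. In U2OS cells IFITM3 gave 117, 78.2 and 84.2 CPM in untreated and 56.2, 58.2 and 55.6 CPM in treated WT libraries, and 86.8, 86.05 and 86.7 CPM and 52.9, 46.5 and 51.6 CPM in the ID3-KO libraries. Treated U2OS libraries were below untreated ones for IFITM3 in both genotypes, with log2 values of -0.71 (adjusted p = 0.0049) and -0.78 (adjusted p = 3.4e-12) in WT and ID3-KO cells, and after recovery the WT value was -0.23 (adjusted p = 0.0011). IFITM2 stood at 33.9, 33.4 and 32.3 CPM in untreated WT AID-DIvA cells and at 31.4, 30.04 and 30.02 CPM after treatment and recovery, and in ID3-KO cells at 31.95, 30.9 and 33.1 CPM and 36.7, 28.4 and 30.2 CPM, in the same order. In U2OS cells IFITM2 gave 57.3, 38.8 and 39.4 CPM in untreated and 31.99, 31.5 and 30.7 CPM in treated WT libraries, and 43.8, 42.95 and 44.4 CPM and 28.9, 26.5 and 29.6 CPM in the ID3-KO libraries. IFITM2 followed the same order in U2OS cells, at -0.52 (adjusted p = 0.022) in WT and -0.62 (adjusted p = 4.5e-10) in ID3-KO cells, and no IFITM2 or IFITM3 change reached the threshold. Without untreated WT replicate 1 the WT values were -0.52 (adjusted p = 4.0e-16) for IFITM3 and -0.32 (adjusted p = 9.6e-08) for IFITM2. These genes are near-identical copies of each other, and reads they share make their separate levels uncertain. IFITM1, whose span lies inside the annotated span of IFITM2, was below 1 CPM in every library and was called higher in ID3-KO cells, at 1.89 ± 0.46 (adjusted p = 0.0096) in AID-DIvA and 1.28 ± 0.42 (adjusted p = 0.0092) in U2OS cells. The U2OS value was 0.97 (adjusted p = 0.085) without treated replicate 1, and no longer called.

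MX1 and MX2 are dynamin-like GTPases that trap viral components, and the guanylate-binding proteins GBP1 and GBP2 act against intracellular pathogens. MX1, among the best-known interferon-induced genes, fell in treated U2OS cells. In U2OS cells MX1 stood at 1.42, 1.71 and 1.92 CPM in untreated and 0.781, 0.765 and 0.738 CPM in treated WT libraries, and 1.55, 1.53 and 1.86 CPM and 0.611, 0.782 and 0.675 CPM in the ID3-KO libraries. Every treated library was below every untreated one. The log2 fold change was -1.14 ± 0.18 (adjusted p = 0.0013) in WT and -1.26 ± 0.19 (adjusted p = 2.6e-06) in ID3-KO cells. MX1 stood at 1.76, 1.94 and 1.39 CPM in untreated WT AID-DIvA cells and at 1.42, 1.35 and 1.47 CPM after treatment and recovery, and in ID3-KO cells at 1.801, 1.600 and 1.402 CPM and 1.82, 1.68 and 1.51 CPM, in the same order. After recovery the groups overlapped, with log2 values of -0.25 (adjusted p = 0.21) and 0.05 (adjusted p = 0.79). MX2 was below 1 CPM in every library and was tested on treatment in WT cells alone, at 0.30 (adjusted p = 0.47) and 0.10 (adjusted p = 0.83), and not called. In ID3-KO AID-DIvA cells it passed without treated and recovered replicate 2, at 1.94 (adjusted p = 0.030), and without untreated replicate 1, at 2.23 (adjusted p = 0.035).

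GBP1 stood at 0.730, 0.818 and 0.765 CPM in untreated WT AID-DIvA cells and at 0.929, 0.921 and 1.13 CPM after treatment and recovery, and in ID3-KO cells at 0.292, 0.312 and 0.346 CPM and 0.951, 0.831 and 0.861 CPM, in the same order. In U2OS cells GBP1 gave 1.52, 1.25 and 1.18 CPM in untreated and 1.58, 1.32 and 1.52 CPM in treated WT libraries, and 0.362, 0.331 and 0.295 CPM and 1.01, 0.896 and 0.675 CPM in the ID3-KO libraries. Untreated ID3-KO libraries were the lowest in both lines, and the treated ID3-KO libraries of the AID-DIvA line reached the WT range. GBP1 rose in ID3-KO cells by 1.46 ± 0.19 (adjusted p = 0.00024) after recovery and by 1.38 ± 0.26 (adjusted p = 7.0e-05) on treatment. In WT cells the values were 0.37 (adjusted p = 0.090) and 0.17 (adjusted p = 0.45), the second 0.28 (adjusted p = 0.21) without untreated replicate 1. The genotype differences, 1.10 ± 0.24 (adjusted p = 0.034) in AID-DIvA and 1.21 ± 0.29 (adjusted p = 0.044) in U2OS cells, did not survive the loss of most single libraries. The first had an adjusted p of 0.053 to 0.11 in 10 of 12 such fits, all but those without treated and recovered WT replicate 3 or untreated ID3-KO replicate 3, and the second 0.055 to 0.13 in 9 of 12, all but those without untreated WT replicate 1 or 3 or treated ID3-KO replicate 3. GBP2 stood at 3.18, 3.84 and 3.44 CPM in untreated WT AID-DIvA cells and at 2.68, 3.44 and 2.83 CPM after treatment and recovery, and in ID3-KO cells at 1.88, 1.76 and 1.78 CPM and 1.59, 2.03 and 1.76 CPM, in the same order. In U2OS cells GBP2 gave 3.61, 3.38 and 4.15 CPM in untreated and 5.23, 5.46 and 4.54 CPM in treated WT libraries, and 1.31, 1.46 and 2.07 CPM and 3.56, 3.58 and 2.903 CPM in the ID3-KO libraries. GBP2 was higher on treatment in U2OS cells of both genotypes without overlap, and was called in ID3-KO cells, at 1.05 ± 0.15 (adjusted p = 2.6e-06), beside 0.46 (adjusted p = 0.021) in WT cells. The call was lost, at 0.92 to 0.9999, without untreated replicate 1 or 2 or treated replicate 1 or 2.

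PARP9 and PARP14 belong to the PARP family of ADP-ribosyltransferases, and their genes lie close together on chromosome 3. PARP14 stood at 62.6, 60.3 and 61.6 CPM in untreated WT AID-DIvA cells and at 57.8, 56.4 and 56.4 CPM after treatment and recovery, and in ID3-KO cells at 78.6, 78.6 and 70.8 CPM and 53.7, 65.1 and 65.8 CPM, in the same order. In U2OS cells PARP14 stood at 43.02, 64.4 and 63.4 CPM in untreated and 40.6, 37.7 and 40.6 CPM in treated WT libraries, and 69.05, 71.8 and 70.1 CPM and 32.3, 35.8 and 34.98 CPM in the ID3-KO libraries. In U2OS cells all treated libraries were below all untreated ones, and the log2 fold change was -1.03 ± 0.05 (adjusted p = 1.5e-14) in ID3-KO cells, called, and -0.52 (adjusted p = 0.024) in WT cells, or -0.69 (adjusted p = 1.6e-19) without untreated replicate 1. The ID3-KO call was lost without treated replicate 1, at -0.99 (adjusted p = 5.7e-20). PARP9 stood at 39.6, 40.5 and 38.7 CPM in untreated WT AID-DIvA cells and at 34.6, 31.5 and 32.9 CPM after treatment and recovery, and in ID3-KO cells at 41.1, 40.6 and 37.3 CPM and 26.5, 32.1 and 30.98 CPM, in the same order. In U2OS cells PARP9 gave 29.1, 34.1 and 34.99 CPM in untreated and 23.3, 23.5 and 23.02 CPM in treated WT libraries, and 32.95, 33.5 and 35.5 CPM and 17.4, 18.04 and 16.9 CPM in the ID3-KO libraries. PARP9 had -0.49 (adjusted p = 0.0028) in WT and -0.96 (adjusted p = 4.5e-13) in ID3-KO U2OS cells, a genotype difference of -0.47 ± 0.10 (adjusted p = 0.028). That difference was lost, with adjusted p of 0.057 to 0.10, without any 1 of the 9 libraries other than the untreated WT ones.

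The restriction factors and antiviral enzymes act on viral RNA, assembly or release. RSAD2 (ENSG00000134321.7, chr2:7005937-7038370), or viperin, makes a nucleotide that stops viral RNA synthesis. RSAD2 stood at 0, 0.134 and 0.184 CPM in untreated WT AID-DIvA cells and at 1.51, 1.101 and 0.967 CPM after treatment and recovery, and in ID3-KO cells at 0.0811, 0.0911 and 0.0364 CPM and 0.766, 0.802 and 0.756 CPM, in the same order. All treated libraries exceeded all untreated ones in both genotypes. The log2 rise was 3.38 ± 0.42 (adjusted p = 3.7e-05) in WT and 3.39 ± 0.29 (adjusted p = 1.6e-05) in ID3-KO cells, from untreated levels of few counts. In U2OS cells RSAD2 had 5 counts in the 3 untreated and 16 in the 3 treated WT libraries (ratio 3.4, exact 95% interval 1.19 to 11.9). In the ID3-KO libraries it had 8 and 7 counts (ratio 0.862, interval 0.266 to 2.72). These intervals pool the libraries of a group and hold counting error only, not the spread between replicates. Treated and untreated libraries overlapped in both genotypes, and RSAD2 was not tested. CMPK2, which makes the substrate of viperin and overlaps RSAD2 on the opposite strand, was not called, at -0.23 (adjusted p = 0.26) and 0.31 (adjusted p = 0.14) in WT and ID3-KO AID-DIvA cells.

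BST2, or tetherin, holds budding virus at the cell surface. BST2 stood at 1.42, 1.52 and 1.36 CPM in untreated WT AID-DIvA cells and at 4.23, 4.92 and 4.62 CPM after treatment and recovery, and in ID3-KO cells at 5.78, 5.85 and 6.72 CPM and 19.2, 16.4 and 15.6 CPM, in the same order. Treated libraries were above untreated ones in both genotypes, and the untreated ID3-KO libraries were above the treated WT libraries. The rise was 1.68 ± 0.11 (adjusted p = 7.3e-08) in WT and 1.48 ± 0.10 (adjusted p = 4.5e-06) in ID3-KO cells. In U2OS cells BST2 gave 3.48, 1.98 and 2.17 CPM in untreated and 2.96, 3.79 and 2.76 CPM in treated WT libraries, and 11.6, 12.9 and 12.8 CPM and 11.3, 9.65 and 10.2 CPM in the ID3-KO libraries. There the groups overlapped in WT cells, at 0.32 (adjusted p = 0.31), and were lower on treatment in ID3-KO cells, at -0.26 (adjusted p = 0.0041). Without untreated WT replicate 1, the highest of its group, the WT value was 0.60 (adjusted p = 0.00054). ISG20, an RNA exonuclease, rose in both genotypes of the AID-DIvA line. ISG20 stood at 4.48, 4.88 and 4.05 CPM in untreated WT AID-DIvA cells and at 12.6, 10.6 and 11.1 CPM after treatment and recovery, and in ID3-KO cells at 2.92, 3.12 and 2.77 CPM and 7.61, 6.81 and 6.51 CPM, in the same order. In U2OS cells ISG20 gave 9.31, 6.61 and 6.31 CPM in untreated and 13.8, 12.8 and 12.4 CPM in treated WT libraries, and 4.77, 4.69 and 4.98 CPM and 9.997, 7.399 and 9.02 CPM in the ID3-KO libraries. Treated libraries were above untreated ones in each of the 4 comparisons. The log2 fold changes were 1.36 ± 0.09 (adjusted p = 8.5e-08) and 1.24 ± 0.10 (adjusted p = 1.1e-05) after recovery and 0.81 (adjusted p = 0.0032) and 0.88 (adjusted p = 5.3e-08) on treatment, in WT and ID3-KO cells. Without untreated WT U2OS replicate 1 the WT value on treatment was 1.002 (adjusted p = 1.8e-15), past the threshold.

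TRIM22, a ubiquitin ligase that restricts several viruses, fell most in treated U2OS cells. In U2OS cells TRIM22 stood at 5.88, 5.402 and 6.15 CPM in untreated and 1.02, 1.68 and 1.37 CPM in treated WT libraries, and 8.71, 9.38 and 9.89 CPM and 1.27, 1.39 and 1.68 CPM in the ID3-KO libraries. The treated libraries of both genotypes were far below the untreated ones. The log2 fold change was -2.10 ± 0.18 (adjusted p = 6.6e-05) in WT and -2.68 ± 0.11 (adjusted p = 1.3e-15) in ID3-KO cells. TRIM22 stood at 2.74, 2.59 and 2.98 CPM in untreated WT AID-DIvA cells and at 2.73, 3.06 and 3.097 CPM after treatment and recovery, and in ID3-KO cells at 5.81, 6.14 and 5.06 CPM and 5.81, 5.83 and 6.42 CPM, in the same order. After recovery treated and untreated libraries overlapped, at 0.10 (adjusted p = 0.49) and 0.08 (adjusted p = 0.53). The response in U2OS cells differed from that in AID-DIvA cells by -2.20 ± 0.21 (adjusted p = 2.1e-06) in WT and -2.75 ± 0.15 (adjusted p = 8.4e-11) in ID3-KO cells.

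SAMD9 and SAMD9L are paralogous inhibitors of translation and growth on chromosome 7. In U2OS cells SAMD9 stood at 7.12, 9.88 and 9.97 CPM in untreated and 20.7, 20.95 and 20.1 CPM in treated WT libraries, and 9.85, 8.53 and 8.75 CPM and 16.2, 18.97 and 17.3 CPM in the ID3-KO libraries. SAMD9 stood at 15.2, 13.9 and 14.2 CPM in untreated WT AID-DIvA cells and at 12.9, 15.3 and 13.8 CPM after treatment and recovery, and in ID3-KO cells at 15.03, 14.7 and 13.1 CPM and 7.72, 14.2 and 15.5 CPM, in the same order. SAMD9 was higher in all treated U2OS libraries, by 1.20 ± 0.13 (adjusted p = 0.00024) in WT, called, and 0.96 (adjusted p = 7.6e-11) in ID3-KO cells, which passed without untreated replicate 1, at 1.02 (adjusted p = 2.7e-10), or treated replicate 1, at 1.01 (adjusted p = 3.5e-15). Treated ID3-KO AID-DIvA replicate 1 was the lowest of its group, and the recovery comparisons were not called. SAMD9L had log2 values from -0.55 to -0.31, all below 0 and none called.

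**Figure D3:**
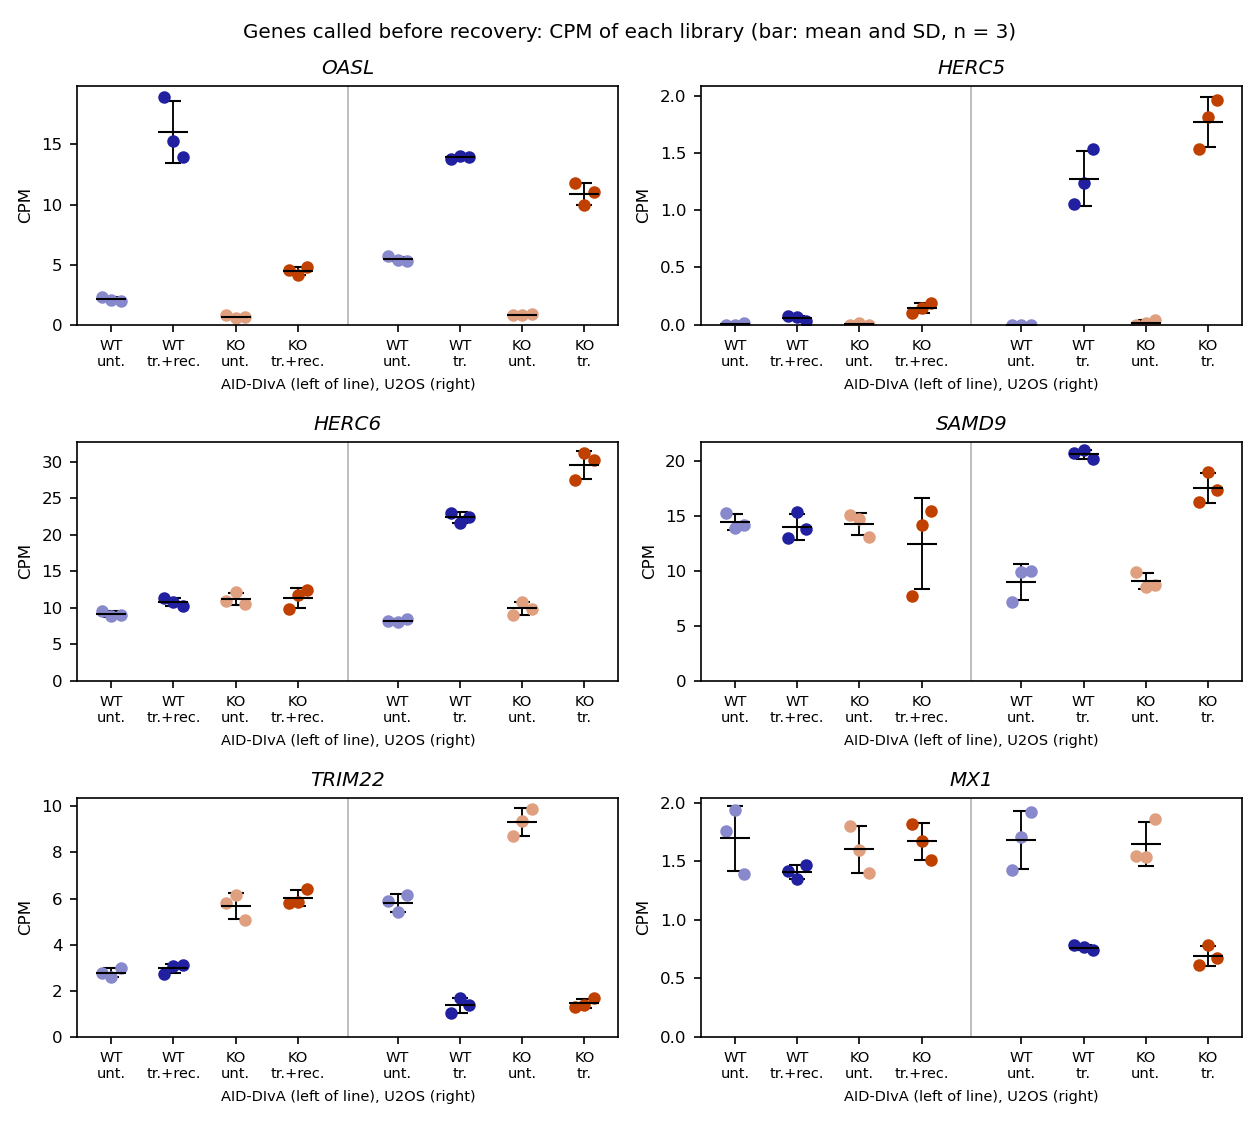
CPM of OASL, HERC5, HERC6, SAMD9, TRIM22 and MX1 in every library (points), with the mean and SD of each group of 3 (bars), AID-DIvA left and U2OS right of the grey line (unt., untreated; tr., treated; tr.+rec., treated and recovered). Treated U2OS libraries are higher than untreated ones for OASL, HERC5, HERC6 and SAMD9 and lower for TRIM22 and MX1, such as TRIM22 at 1.02, 1.68 and 1.37 CPM in treated WT cells. In the 2 recovery comparisons OASL was the only one of these genes called, and HERC5 was not tested.

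The last genes are known mainly by their induction. IFI44 (ENSG00000137965.6, chr1:79115481-79129763) and IFI44L (ENSG00000137959.11, chr1:79085607-79111830) are neighbours, and both rose after recovery. IFI44 stood at 11.2, 10.5 and 12.3 CPM in untreated WT AID-DIvA cells and at 54.5, 38.9 and 34.9 CPM after treatment and recovery, and in ID3-KO cells at 3.55, 3.68 and 3.46 CPM and 10.1, 12.7 and 13.2 CPM, in the same order. IFI44L stood at 1.599, 1.19 and 1.36 CPM in untreated WT AID-DIvA cells and at 3.22, 2.88 and 2.36 CPM after treatment and recovery, and in ID3-KO cells at 0.909, 0.650 and 0.674 CPM and 1.32, 1.93 and 1.57 CPM, in the same order. Treated libraries were above untreated ones in both genotypes, and the ID3-KO levels of IFI44 were below the WT levels before and after treatment. IFI44 rose by 1.93 ± 0.18 (adjusted p = 0.00020) in WT and 1.76 ± 0.11 (adjusted p = 2.8e-06) in ID3-KO cells, and IFI44L by 1.04 ± 0.15 (adjusted p = 8.9e-05) and 1.14 ± 0.19 (adjusted p = 0.0012). The WT call of IFI44L was lost without treated replicate 1, at 0.93 (adjusted p = 4.2e-06), or untreated replicate 2, at 0.94 (adjusted p = 0.0010), and the ID3-KO call without treated replicate 2, at 0.97 (adjusted p = 0.0088). In U2OS cells IFI44 gave 9.44, 9.82 and 10.2 CPM in untreated and 11.9, 12.4 and 11.1 CPM in treated WT libraries, and 5.13, 4.19 and 5.26 CPM and 7.28, 7.61 and 7.55 CPM in the ID3-KO libraries. In U2OS cells IFI44L gave 1.603, 2.28 and 2.04 CPM in untreated and 2.47, 2.13 and 1.93 CPM in treated WT libraries, and 1.09, 0.802 and 1.42 CPM and 1.26, 1.75 and 1.91 CPM in the ID3-KO libraries. IFI44 was above its untreated level on treatment, at 0.27 (adjusted p = 0.031) and 0.63 (adjusted p = 2.8e-06), under the threshold, and IFI44L had 0.14 (adjusted p = 0.54) and 0.58 (adjusted p = 0.014).

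In U2OS cells IFI6 stood at 13.99, 8.64 and 8.91 CPM in untreated and 23.6, 24.5 and 23.7 CPM in treated WT libraries, and 8.79, 10.3 and 10.3 CPM and 22.2, 21.4 and 23.4 CPM in the ID3-KO libraries. IFI6 stood at 6.24, 7.03 and 7.22 CPM in untreated WT AID-DIvA cells and at 10.5, 13.3 and 11.8 CPM after treatment and recovery, and in ID3-KO cells at 7.08, 7.13 and 9.01 CPM and 15.2, 13.5 and 12.9 CPM, in the same order. IFI6 was above its untreated level in all 4 comparisons without overlap. It rose by 1.19 ± 0.18 (adjusted p = 0.0011) in WT and 1.19 ± 0.07 (adjusted p = 4.9e-13) in ID3-KO U2OS cells, with 1.45 (adjusted p = 5.9e-25) in WT cells without untreated replicate 1, and its values after recovery were 0.80 (adjusted p = 1.2e-05) and 0.85 (adjusted p = 0.00028). IFI27, a mitochondrial protein and a common blood marker of interferon exposure, was not called. IFI27 stood at 1.34, 1.17 and 0.979 CPM in untreated WT AID-DIvA cells and at 1.11, 1.08 and 1.11 CPM after treatment and recovery, and in ID3-KO cells at 1.53, 1.04 and 1.26 CPM and 1.45, 1.14 and 1.32 CPM, in the same order. In U2OS cells IFI27 gave 2.41, 1.88 and 1.43 CPM in untreated and 2.57, 2.98 and 2.39 CPM in treated WT libraries, and 1.61, 1.43 and 1.697 CPM and 2.93, 2.57 and 2.64 CPM in the ID3-KO libraries. Its groups overlapped in AID-DIvA cells and were apart in ID3-KO U2OS cells, at 0.79 (adjusted p = 2.5e-05). IFI35 was below 1 CPM in every library, with 53.4% of its counts from the reverse strand, and was not called. With reverse-strand counts it was called in untreated ID3-KO against WT AID-DIvA cells. By counts from either strand the ID3-KO libraries were the lower ones there, without overlap.

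Differences between responses were called at an adjusted p under 0.05, with no fold required. The response after recovery differed between the genotypes for 6 of 40 members tested. The ID3-KO response minus the WT response was below 0 for 5 (12.5%, against 0.451% of 21265 genes) and above 0 for 1 of 40 (against 0.762% of all genes). The 5 were DDX60, IFIT3, IFIT2, ISG15 and IFIT1, with differences from -1.31 to -0.56 on the log2 scale, and the 1 was GBP1. IFIT1 differed in direction, being higher after recovery in WT and lower in ID3-KO cells, both within the fold threshold. Among the other genes called in WT cells, the differences were -0.15 (adjusted p = 0.83) for OASL, 0.01 (adjusted p = 0.99) for RSAD2, -0.20 (adjusted p = 0.67) for BST2, -0.11 (adjusted p = 0.79) for ISG20, -0.16 (adjusted p = 0.81) for IFI44 and -0.41 (adjusted p = 0.22) for DDX58. Those of IFIH1 and IFI44L were not called either. Of the 12 genes called in WT cells, 10 had their highest treated level in treated WT replicate 1. How often this held over all genes called higher in WT cells was not counted. Without that library 5 members were still called, all but GBP1.

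On treatment in U2OS cells the genotypes differed for 3 of 41 members. The ID3-KO response minus the WT response was above 0 for OASL and GBP1 (4.88%, against 1.10% of 22647 genes). It was below 0 for PARP9 (2.44%, against 1.06%), which fell further in ID3-KO than in WT cells. The count of 3 members moved with single libraries. Without untreated WT replicate 1 it was 11, while over all genes it went from 488 to 2091, with IRF1, IFIT1, IFIT5, IFITM2, IFITM3, PARP14, BST2 and IFI44 added among the members, of which BST2 had the largest difference, -0.85 (adjusted p = 0.00025). Without any 1 of the 3 treated WT, the 3 untreated ID3-KO or treated ID3-KO replicates 1 and 2, it was 1, which was OASL.

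**Figure D4:**
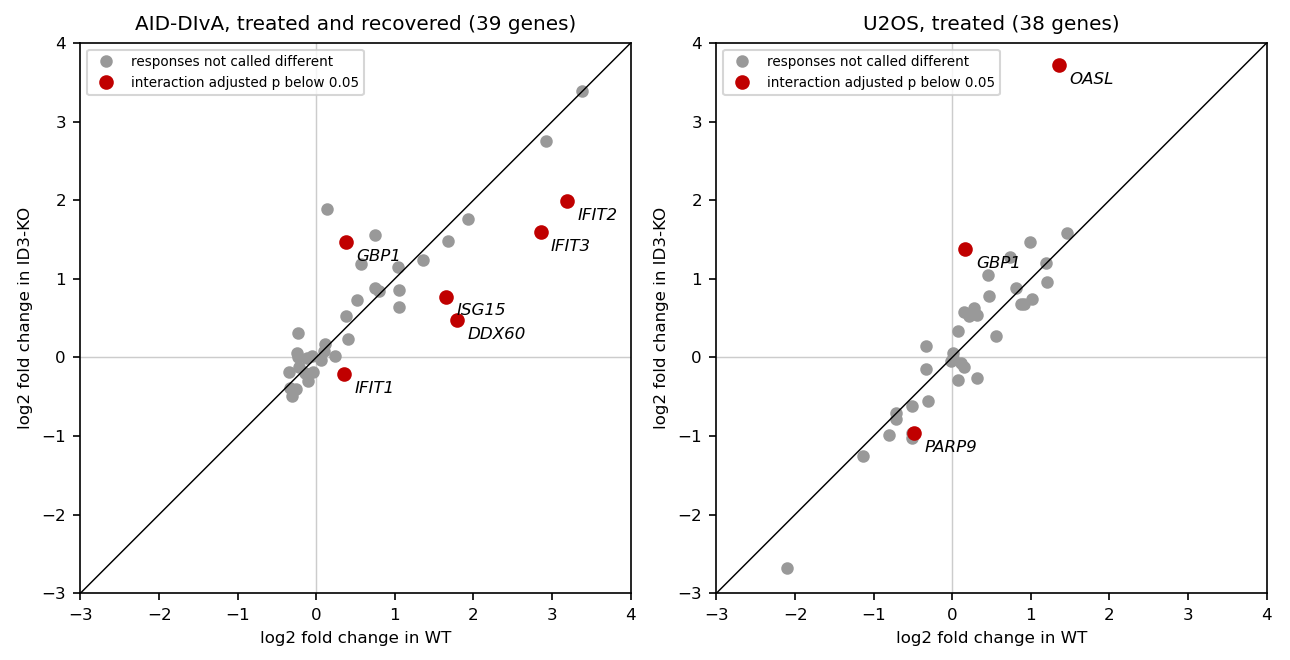
Log2 fold change in ID3-KO cells (vertical axis) against WT cells (horizontal axis) for members tested in both, 39 genes after recovery in AID-DIvA cells (left) and 38 on treatment in U2OS cells (right, HERC5 left out because it was at 0 counts), with the line of equal response. Red points are genes whose responses differed at an adjusted p below 0.05: IFIT2, IFIT3, DDX60, ISG15 and IFIT1 lie below the line on the left, GBP1 above it in both panels, and on the right OASL lies above and PARP9 below it.

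The response in U2OS cells minus that in AID-DIvA cells was below 0 at an adjusted p below 0.05 for 13 of 42 members in WT cells (31.0%, against 20.5% of 22238 genes) and above 0 for 6 (14.3%, against 21.7%). In ID3-KO cells it was below 0 for 15 of 42 (35.7%, against 24.8% of 21947 genes) and above 0 for 9 (21.4%, against 27.7%). Without untreated WT U2OS replicate 1 the WT count was 25 in place of 19, and that of all genes 11829 in place of 9377. The WT differences beyond 1 were 8 lower and 3 higher. The lower ones were IFIT2, IFIT3, TRIM22, DDX60 (-1.70), IFI44 (-1.65), OASL (-1.56), BST2 (-1.36) and ISG15 (-1.33), and the higher ones were HERC5, HERC6 and SAMD9 (1.25). The call of HERC5 was lost without untreated U2OS replicate 1 or 2, treated U2OS replicate 2 or 3, treated AID-DIvA replicate 2 or 3 or untreated AID-DIvA replicate 3, with adjusted p of 0.051 to 1.0, and also without the filter on low counts. ISG15 was at -0.93 (adjusted p = 1.6e-07) without untreated WT U2OS replicate 1. For OASL the difference had opposite signs in the 2 genotypes, -1.56 ± 0.16 (adjusted p = 4.2e-06) in WT and 0.97 ± 0.22 (adjusted p = 0.0011) in ID3-KO cells. Whether the stage or the line accounts for any of these values cannot be told apart.

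Without treatment, ID3-KO cells had lower levels of several members and higher levels of BST2. In AID-DIvA cells 4 of 38 members tested were lower (10.5%, against 2.30% of 20441 genes) and 2 were higher (5.26%, against 2.27%). In U2OS cells 6 of 39 were lower (15.4%, against 2.84% of 20621 genes) and 1 was higher (2.56%, against 1.42%). The median log2 difference over members tested was -0.05 and -0.04, beside 0.00087 and -0.01 over all genes. OASL, MX2, GBP1 and IFI44 were lower in both lines, 100% of the AID-DIvA set and 66.7% of the U2OS set, and BST2 was higher in both. The overlap of the lines over all genes was not counted.

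The log2 difference of OASL, ID3-KO minus WT, was -1.69 ± 0.16 (adjusted p = 6.7e-07) in AID-DIvA and -2.72 ± 0.12 (adjusted p = 3.4e-05) in U2OS cells. That of GBP1 was -1.28 ± 0.20 (adjusted p = 0.00012) and -1.99 ± 0.21 (adjusted p = 0.0010), and that of IFI44 -1.66 ± 0.08 (adjusted p = 2.8e-10) and -1.01 ± 0.11 (adjusted p = 0.0013). In all 3 genes the untreated ID3-KO libraries were below the untreated WT libraries of their line without overlap. MX2 stood at 0.316, 0.184 and 0.367 CPM in untreated WT and 0.114, 0.0260 and 0.0546 CPM in untreated ID3-KO AID-DIvA cells, and at 0.518, 0.356 and 0.588 CPM and 0.121, 0.105 and 0.184 CPM in U2OS cells. These are levels of few counts, with differences of -2.18 ± 0.47 (adjusted p = 0.0017) and -1.81 ± 0.37 (adjusted p = 0.016). BST2 was higher in ID3-KO cells by 2.09 ± 0.11 (adjusted p = 3.8e-10) and 2.29 ± 0.20 (adjusted p = 0.00046), the widest gap of the list in that direction. TRIM22 was higher by 1.04 ± 0.10 (adjusted p = 5.2e-07) in AID-DIvA cells and had 0.69 (adjusted p = 0.0038) in U2OS cells, and its call was lost without untreated replicate 2 of either genotype, at 0.98 to 0.99. GBP2 was lower in U2OS cells, at -1.20 ± 0.19 (adjusted p = 0.0063) and had -0.95 (adjusted p = 4.7e-06) in AID-DIvA cells, or -1.01 (adjusted p = 3.0e-05) without WT replicate 1, and IFITM1 was called lower in U2OS cells at -1.30 ± 0.35 (adjusted p = 0.046). Without untreated ID3-KO U2OS replicate 2 the U2OS count was 4 in place of 7, with IFITM1, MX2 and IFI44 lost, and without untreated WT replicate 1 it was again 7. IFITM1 was called in U2OS cells only with all libraries or without untreated WT replicate 1. MX2 was lost there, with adjusted p of 0.053 to 0.085, without WT replicate 3 or ID3-KO replicate 1 or 2, and IFI44 without WT replicate 3 or ID3-KO replicate 2, at -0.99 to -0.92.

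**Figure D5:**
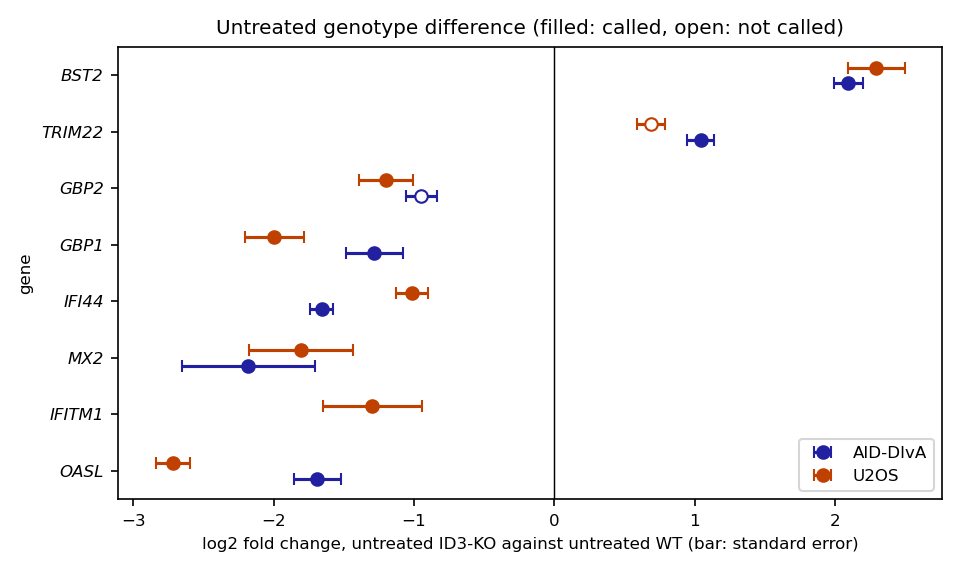
Log2 fold change of untreated ID3-KO against untreated WT cells (horizontal axis, bars are standard errors) for the 8 genes called in either line, AID-DIvA in blue and U2OS in orange, filled where called. OASL, IFITM1, MX2, IFI44, GBP1 and GBP2 lie left of 0 and TRIM22 and BST2 right of 0 in every line in which they were tested (IFITM1 was not tested in AID-DIvA cells).

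The rest of the pathway was read from a list of 53 genes outside the 44. Of 21 interferon genes, type I, II and III, none passed the filter in any comparison. Those other than IFNE summed to 0 to 8 counts per library, with at most 5 counts of 1 gene in 1 library, and IFNE had 1 to 8 counts. Several interferon alpha genes are near-identical copies, so single counts of one may belong to another. The receptor genes IFNAR1 and IFNAR2, for type I interferon, ranged from 38.4 to 69.96 CPM and from 8.65 to 15.6 CPM over the 24 libraries. IFNGR1 and IFNGR2, for type II, ranged from 18.6 to 39.9 CPM and from 31.4 to 55.8 CPM. Of the type III receptor, IL10RB ranged from 33.1 to 51.8 CPM and IFNLR1 from 0 to 0.0628 CPM. No receptor was called in a treatment comparison.

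STAT3, a transcription factor of the cytokine response, ranged from 118 to 279 CPM, with log2 values of -0.26 (adjusted p = 0.00016), -0.37 (adjusted p = 0.00084), 0.32 (adjusted p = 0.018) and 0.15 (adjusted p = 0.0033) in WT and ID3-KO AID-DIvA and in WT and ID3-KO U2OS cells, none past the threshold. Of the 30 pathway genes tested, 0 were higher and 1 was lower in WT and 0 were called in ID3-KO AID-DIvA cells, and 1 was higher and 2 were lower in WT and 0 and 2 in ID3-KO U2OS cells. Over all genes, 4.86% were higher and 2.52% lower in WT and 4.90% and 2.56% in ID3-KO AID-DIvA cells. In U2OS cells these shares were 13.6% and 5.06% in WT and 14.6% and 5.77% in ID3-KO cells.

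SOCS1, an inhibitor of JAK kinases that interferon itself induces, was called in 5 of the 10 comparisons. It had 4.86, 5.09 and 4.27 CPM in untreated and 1.15, 1.89 and 2.13 CPM in treated and recovered WT AID-DIvA cells, against 2.65, 2.47 and 3.21 CPM and 2.33, 2.09 and 2.204 CPM in ID3-KO cells. In U2OS cells it had 9.58, 6.21 and 6.68 CPM and 2.73, 3.19 and 2.62 CPM in WT, and 3.72, 3.61 and 3.71 CPM and 3.72, 3.32 and 3.44 CPM in ID3-KO libraries. SOCS1 fell on treatment in WT cells of both lines, with log2 fold changes of -1.45 ± 0.17 (adjusted p = 1.4e-05) and -1.40 ± 0.19 (adjusted p = 0.00059), and the ID3-KO responses differed from these by 1.13 ± 0.24 (adjusted p = 0.025) and 1.33 ± 0.21 (adjusted p = 0.0041). In both lines the untreated ID3-KO libraries were below the untreated WT libraries. Untreated WT U2OS replicate 1, the library that stood apart, had the highest SOCS1 level, 9.58 CPM. Pathway genes were not refitted without it, so every U2OS result of SOCS1 that uses untreated WT cells includes that library. The phosphatase gene PTPN6 was lower in treated U2OS cells, at -1.85 ± 0.24 (adjusted p = 0.00050) in WT and -1.45 ± 0.18 (adjusted p = 1.6e-07) in ID3-KO cells. The endosomal sensor gene TLR3 was lower in treated ID3-KO U2OS cells, at -1.17 ± 0.22 (adjusted p = 4.9e-05), and TRIM25, the ubiquitin ligase of RIG-I, was higher in treated WT U2OS cells, at 1.07 ± 0.10 (adjusted p = 9.0e-05).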

How the data were processed

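RNA-seq libraries of 24 samples were prepared by the authors from total RNA with a stranded kit and sequenced in pairs of 100 bp. Alignment by the authors was to hg19/GRCh37 with STAR, run through Roddy. They assigned reads to genes with featureCounts and deposited raw counts per gene, from either strand and by strand, without normalization. The annotation is named v.29 lift 37 in the methods, although the gene versions in the files have another form. Counts from either strand were used, and IFI35 and IRF7 differ most by strand.

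The tests ran in edgeR 4.0.16 under R 4.3.3, with filterByExpr and TMM scaling. Quasi-likelihood fits were robust, and p-values were adjusted by the Benjamini-Hochberg method. Treatment and untreated genotype comparisons used their own 6 libraries, and differences between responses used 12 and were called at an adjusted p below 0.05. Standard errors are the log2 fold change over the square root of F. DESeq2 1.42.0 was an alternative. For CPM, TMM factors were set once per line, over its 12 libraries, so levels in AID-DIvA and U2OS cells were scaled separately. The steps were tested on simulated data. The members, lists, motifs and alternatives were chosen with earlier results of these data known. Values by library are given for members called in at least 1 of 10 comparisons that average at least 1 CPM in a line, and for HERC5, RSAD2, GBP1 and MX2, which were added because results turn on them. Receptors and STAT3 are given by their range, and 1 item of the pathway list is not reported here. Between replicates the counts varied beyond sampling noise in every group, most in untreated WT U2OS cells. Other assays of the study were not analysed here.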

Additional observations from a re-analysis of the deposited data

Results flagged for a closer look

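The response after recovery in AID-DIvA cells differed between ID3-KO and WT cells, by a test of the difference itself, for DDX60 (-1.31 on the log2 scale), IFIT3 (-1.25), IFIT2 (-1.20), ISG15 (-0.88) and IFIT1 (-0.56), with adjusted p between 0.0027 and 0.012, and for GBP1 (1.10, adjusted p = 0.034). In U2OS cells it differed on treatment for PARP9 (-0.47, adjusted p = 0.028), GBP1 (1.21, adjusted p = 0.044) and OASL (2.36, adjusted p = 8.9e-07).

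Between the lines, which differ also in the stage of collection, the response of WT cells in U2OS minus AID-DIvA differed beyond 1 for IFIT2 (-3.71), IFIT3 (-3.55), TRIM22 (-2.20), DDX60 (-1.70), IFI44 (-1.65), OASL (-1.56), BST2 (-1.36), ISG15 (-1.33), HERC6 (1.22) and SAMD9 (1.25). In ID3-KO cells it did so for IFIT2 (-2.94), TRIM22 (-2.75), IFIT3 (-2.29), BST2 (-1.73), MX1 (-1.30), IFI44 (-1.12), GBP2 (1.05), SAMD9 (1.15) and HERC6 (1.57), all with an adjusted p below 0.05 in edgeR's quasi-likelihood test. HERC5 in WT and RSAD2 in ID3-KO cells also passed, and are given by their counts because at least 1 group held few or no counts of them. Groups of 3 were not tested for single samples far from the others.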

How the results depend on the processing

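Of 108 gene values called, 1629 of 1760 values under an alternative stayed called, 131 were no longer called and 0 changed direction. Fits that did not test a called gene are not among the 1760. An example is RSAD2 in AID-DIvA cells with a minimum of 10 counts per library. Dropping the fold threshold could only keep a call that had passed it. The alternatives were DESeq2, edgeR with the size factors of DESeq2, a test without the low-count filter, a minimum of 10 counts per library, reverse-strand counts, all 4 groups of a line in one fit, no fold threshold (a threshold of 1 for the differences between responses), the replicate block and each library left out.

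Without a fold threshold the number of members called was 24 in WT and 24 in ID3-KO AID-DIvA cells, 22 and 30 in U2OS cells, and 18 and 11 for untreated ID3-KO against WT in AID-DIvA and U2OS cells, against 9512 of 20289, 8156 of 20362, 10653 of 21797, 14794 of 21176, 7502 of 20441 and 3132 of 20621 genes, since more genes then qualify. DESeq2 gave 5 members for the genotype difference in U2OS cells, while over all genes it gave 917 in place of 488. With a threshold of 1, 11 and 10 of 42 members had a different response in U2OS and AID-DIvA in WT and ID3-KO cells. Over all genes these were 3371 of 22238 and 3848 of 21947.

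Leaving out 1 library gave 10 to 12 members in WT and 11 to 12 in ID3-KO AID-DIvA cells, 8 to 10 and 9 to 13 in U2OS cells, 5 to 8 and 4 to 7 for the untreated genotypes, 5 to 6 and 1 to 11 for the genotype differences in AID-DIvA and U2OS cells, and 15 to 25 and 22 to 24 for the differences between lines. The counts over all genes moved too. In the same order they were 1555 to 1597 and 1456 to 1713, then 3724 to 4473 and 4517 to 4649. For the untreated genotypes they were 945 to 1048 and 563 to 1180. For the genotype differences they were 122 to 297 and 257 to 2091, and between lines 8079 to 11829 and 10685 to 11925. In U2OS cells the genotype count was 11 without untreated WT replicate 1 and 1 without untreated ID3-KO replicate 1, 2 or 3, treated WT replicate 1, 2 or 3, or treated ID3-KO replicate 1 or 2. GBP1 in AID-DIvA cells was lost in 10 of the 12 such fits and with DESeq2.

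Replicate numbers recur in each group, but deviations of samples with the same number correlated between -0.46 and 0.34, so that the numbers do not pair the samples. With the replicate block the counts were 12, 12, 8 and 12 members in the 4 treatment comparisons, 6 and 6 for the untreated genotypes, 5 and 3 for the genotype differences and 18 and 24 for the differences between lines, and GBP1 in AID-DIvA, IFITM1 in untreated U2OS and HERC5 between lines were lost and IRF9 in treated ID3-KO U2OS cells was gained. Over all genes the counts with the block were, in the same order, 1481, 1466, 3881 and 4314, then 956 and 744, then 157 and 393, then 8886 and 11520. Depth limits HERC5, RSAD2, MX2, IFITM1, OAS2 and GBP1, each below 1 CPM in most libraries.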
